A study of Mus musculus with 8 samples.

Results

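The genes described here are 10 genes taken as markers of the endothelial cells of brain vessels, namely Tie1, Tek, Kdr, Eng, Flt1, Cdh5, Pecam1, Cldn5, Slc2a1 and Mfsd2a. They were chosen by symbol from the 21165 rows of a count table of mouse cortex, each has a single row, and all 10 passed the filter on low counts. They were compared between embryos that lack the kinase Nuak1 (KO) and wild-type embryos (WT), with all libraries and again without KO library R1.

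Endothelial cells line the vessels that grow into the cortex from the surrounding meninges. Vascular endothelial growth factor (VEGF) drives this growth through the receptors Kdr and Flt1, angiopoietins act through the receptor Tek and its partner Tie1, and endoglin (Eng) is a coreceptor for ligands of the TGF-beta and BMP families. Cdh5, Pecam1 and Cldn5 hold neighbouring endothelial cells together, and the transporters Slc2a1 and Mfsd2a carry glucose and lipids across the blood-brain barrier, the seal that brain vessels form around the tissue.

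The KO embryos carried a constitutive deletion of Nuak1 on a C57Bl/6JRj background, so that vessels, blood and neurons alike lacked the kinase, and KO and WT embryos were taken at E18.5, shortly before birth. RNA came from whole microdissected cortex of 4 KO embryos, 2 of them male, and 4 WT embryos, 1 of them male, from 3 litters by the sample labels, though the design text counts 4. Columns of the table carry a genotype and a running number only, so libraries are named here as KO library R1 and the like and have no litter or sex. Each library is a separate embryo, and p-values measure the spread between embryos.

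The sequence before the start of a gene is where its promoter usually lies, and motifs of ETS factors, a family that includes regulators of endothelial genes, were marked there. RefSeq (GRCm38.p6) gave a promoter sequence for 8 of the 10 genes, and not for Cdh5 and Pecam1. For Kdr and Flt1 none of its first 250 bases lay before the gene's outermost annotated start, so they have no such window. The 4 windows shown are those of a receptor, a coreceptor, a junction gene and a transporter, up to 250 bases long and ending at the base before the gene's start. Tie1 lies at chr4:118489850-118490099 on the minus strand, Eng at chr2:32646345-32646594 on the plus strand, Cldn5 at chr16:18776597-18776846 on the plus strand and Mfsd2a at chr4:122961195-122961438 on the minus strand. Capitals mark the ETS motif (GGAAG, or CTTCC on the other strand) and the hypoxia response motif (ACGTG, or CACGT on the other strand).
Tie1: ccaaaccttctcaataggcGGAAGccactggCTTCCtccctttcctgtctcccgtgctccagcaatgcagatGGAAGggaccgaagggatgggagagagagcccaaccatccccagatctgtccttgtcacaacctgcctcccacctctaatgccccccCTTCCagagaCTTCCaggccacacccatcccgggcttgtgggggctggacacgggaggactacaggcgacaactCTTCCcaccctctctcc
Eng: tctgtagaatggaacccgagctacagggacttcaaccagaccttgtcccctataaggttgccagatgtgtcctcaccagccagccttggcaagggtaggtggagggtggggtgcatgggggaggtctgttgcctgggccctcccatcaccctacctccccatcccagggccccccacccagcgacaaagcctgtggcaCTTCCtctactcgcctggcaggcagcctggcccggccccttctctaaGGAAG
Cldn5: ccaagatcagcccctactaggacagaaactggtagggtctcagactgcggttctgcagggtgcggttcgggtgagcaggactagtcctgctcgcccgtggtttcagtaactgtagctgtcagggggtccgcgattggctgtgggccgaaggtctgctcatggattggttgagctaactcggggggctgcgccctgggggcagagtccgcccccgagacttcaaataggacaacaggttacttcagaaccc
Mfsd2a: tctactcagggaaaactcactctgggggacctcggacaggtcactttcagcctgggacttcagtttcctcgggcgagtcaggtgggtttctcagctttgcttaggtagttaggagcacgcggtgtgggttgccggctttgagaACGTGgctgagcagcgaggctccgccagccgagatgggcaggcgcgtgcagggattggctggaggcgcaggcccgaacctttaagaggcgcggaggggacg
The window of Tie1 held 6 matches of the ETS motif and that of Eng held 2, while those of Cldn5 and Mfsd2a held 0. To compare with all genes, the first 250 bases of each promoter sequence were searched, also where they ran past the gene's start. Of these 8 sequences, 4 held the ETS motif (Eng, Tie1, Kdr and Flt1), against 63.6% of 27025 promoters. The hypoxia motif was found in 2 of the 8, Slc2a1 and Mfsd2a, against 16.6% of all promoters. The motif of the Wnt effectors TCF and LEF (CTTTG, or CAAAG on the other strand) was found in 3, Eng, Tek and Mfsd2a, against 48.8%. No match of Kdr, Flt1 or Tek lay before the gene's start, as the window of Tek, of 47 bases, held 0 of each motif. Such matches describe the letters only.

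Libraries held between 9643711 and 27014858 counts, and the genes tested held 99.9% of them in every library, to 3 digits. Nuak1 had between 11.1 and 20.5 normalized counts (counts scaled to the mean library size after TMM normalization) in KO and between 877 and 1445 in WT, so each library followed its genotype label. Tubb3, a neuronal tubulin, had between 18852 and 23075 normalized counts. KO library R1 stood apart from the rest. The summed level of 13 markers of meningeal fibroblasts, of which 8 passed the filter, was 11308 normalized counts in R1, against 553 to 745 in KO libraries R2 to R4 and 429 to 598 in WT. The 12 markers of microglia and macrophages summed to 2022 in R1, against 656 to 911 in R2 to R4 and 650.02 to 931 in WT. The 7 choroid plexus markers summed to 93.5 in R1 and to at most 27.0 in any other library. None of these markers was at 0 in every library. The part of these other cells in the endothelial values was not tested, and the results below are given with and without R1.

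With all libraries, 9 of the 10 genes had a positive log2 fold change of KO over WT and the median was 0.22, against -0.01 over the 12699 genes tested, of which 45.6% were positive. Without R1, 7 were positive and the median was 0.08, against -0.00 over 12899 genes, of which 49.9% were positive. In edgeR's quasi-likelihood test, 0 of the 10 genes passed an adjusted p of 0.05 with either set of libraries, against 0.0709% of all genes with all libraries and 0.0465% without R1. DESeq2 also called 0 of the 10, against 0.543% and 0.372%. Of the 10, Cldn5 alone had an unadjusted p under 0.05 with edgeR, against 7.69% of all genes, and so it was without R1, against 5.63%. The study called genes whose log2 fold change exceeded 0.25 in size at the same unadjusted p. By this rule Cldn5 was the 1 gene called, against 4.25% of all genes in either direction and 2.45% higher in KO, and again without R1, against 3.54% and 1.81%. DESeq2 called Cdh5 and Cldn5 by the same rule, against 3.85% of all genes, and Cldn5 without R1, against 3.09%. R1 was the highest of the 8 libraries for 9 of the 10 genes, all but Mfsd2a, against 16.8% of all genes tested. Every KO library lay above every WT library for 2.64% of all genes tested, and for 3.5% without R1. The share with every KO library below every WT library was not computed. All these shares also stand beside the calls and the genes without overlap in the other lists below. In bulk tissue, more endothelial cells and more RNA per endothelial cell cannot be told apart. Nor do counts of whole cortex show which cells the RNA of each gene came from.

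**Figure D1:**
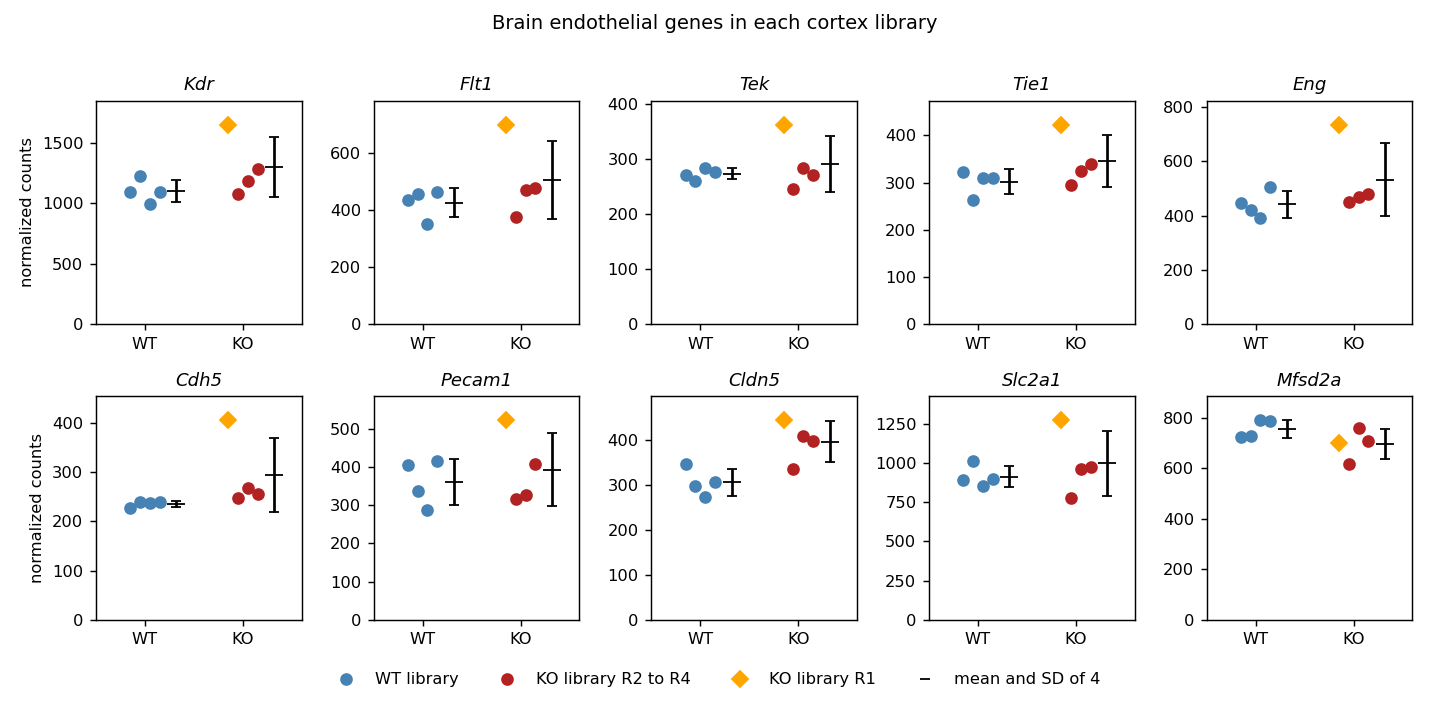
Normalized counts of the 10 brain endothelial genes (y axis, from 0) in each WT and KO library (x axis), with KO library R1 as an orange diamond and the mean and SD of 4 libraries in black. R1 is the top point in 9 of the 10 panels, while for Mfsd2a KO libraries R1, R2 and R4 lie below WT. Leaving R1 aside, only Cdh5 has all KO libraries above WT, and for Tie1, Flt1 and Cldn5 alike R3 and R4 lie above it.

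Of the angiopoietin receptors, Tie1 (NCBIM37, the assembly behind mm9, chromosome 4 from 118143796 to 118162666) had 423, 295, 325 and 340.0 normalized counts in KO libraries R1 to R4 and 323, 264, 310.5 and 311 in WT libraries R1 to R4. KO libraries R1, R3 and R4 lay above every WT library, but R2 lay within the WT range. The log2 fold change was 0.20 (95% interval -0.06 to 0.45, adjusted p = 0.762) and 0.10 without R1 (-0.12 to 0.32, adjusted p = 0.960). Tek, the receptor that binds angiopoietins (chromosome 4 from 94405980 to 94541667), had 363, 246, 283 and 272 normalized counts in KO and 271, 261, 284 and 277 in WT. Apart from R1 the KO libraries did not exceed WT, and R2 was the lowest of all. Its log2 fold change was 0.09 (-0.16 to 0.35, adjusted p = 0.900) and -0.02 without R1 (-0.22 to 0.18, adjusted p = 0.996), so the sign turned on that library. Of 6 angiopoietins and partners of these receptors, 4 passed the filter and Angpt4 was listed at 0 in all libraries. The 4 had a median log2 fold change of 0.11, 3 of them positive, and of 0.08 without R1, 2 of them positive, and 0 were called at the study's thresholds with either set. Angpt2, which loosens vessels, had 70.5 normalized counts in R1 and between 7.60 and 16.9 in every other library. The fold change on the log2 scale was 1.20 (adjusted p = 0.710) and 0.30 without R1 (adjusted p = 0.974). Foxo1, a transcription factor held back by Tek signalling, had a log2 fold change of -0.36 (adjusted p = 0.817) and -0.58 without R1 (adjusted p = 0.865).

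Kdr, the main signalling receptor for VEGF (chromosome 5 from 76328852 to 76374483), had 1650.2, 1075, 1188 and 1280.2 normalized counts in KO and 1090.2, 1222, 996 and 1095 in WT. R1 and R4 lay above WT and the other KO libraries within it. The log2 fold change was 0.24 (-0.02 to 0.49, adjusted p = 0.694) and 0.11 without R1 (-0.08 to 0.30, adjusted p = 0.945). Flt1, a decoy receptor that limits VEGF (chromosome 5 from 148373180 to 148537587), had 698, 376, 469.7 and 476 normalized counts in KO and 436, 456, 350.1 and 461 in WT. R1 was 1.47 times the next library and R3 and R4 lay just above every WT library, while R2 was below 3 of the WT libraries. On the log2 scale KO differed by 0.24 (-0.12 to 0.61, adjusted p = 0.792) and 0.07 without R1 (-0.20 to 0.34, adjusted p = 0.984). Kdr and Flt1 followed each other most closely of the 45 pairs of the 10 genes, with r = 0.95 over 8 libraries that include R1, given as a description. Without R1 the closest pair was another, Tek with Mfsd2a (r = 0.91). All 8 VEGF ligands and coreceptors passed the filter, with a median log2 fold change of -0.00, and -0.05 without R1. At the study's thresholds Vegfc was higher and Nrp1 and Nrp2 lower, with both sets of libraries. Vegfc, a ligand of lymphatic and brain vessels, had a log2 fold change of 0.62 (adjusted p = 0.560) and 0.56 without R1 (adjusted p = 0.865). Vegfa, the ligand of both receptors, had a log2 fold change of 0.11 (adjusted p = 0.832) and 0.05 without R1 (adjusted p = 0.982). Nrp1, a coreceptor of Kdr that growing axons also use to read semaphorins, had 4382 normalized counts in R1, 3652 to 3912 in the other KO libraries and 5399 to 6315 in WT. The genotypes did not overlap, and Nrp1 fell by 0.52 on the log2 scale (adjusted p = 0.0314), and by 0.56 without R1 (adjusted p = 0.0338). This call was lost in 6 of the 8 fits that left out 1 library, those without KO library R2, R3 or R4 or without WT library R1, R2 or R3, with adjusted p up to 0.161, and held without KO library R1 or WT library R4. Without R1 it was lost when KO library R2, R3 or R4 or WT library R1 or R3 was left out too, with adjusted p up to 0.261. At the study's thresholds Nrp1 stayed called in each of these fits. DESeq2 gave Nrp1 an adjusted p of 5.97e-08 with all libraries, and of 2.54e-10 without R1. Nrp2, a coreceptor of lymphatic endothelium and neurons, had a log2 fold change of -1.21 (adjusted p = 0.440) and -1.30 without R1 (adjusted p = 0.651), with WT libraries spread from 360.2 to 1591 normalized counts. Leaving out WT library R2 or R4 gave the ends of its range, -1.50 (adjusted p = 0.0297) and -0.89 (adjusted p = 0.272).

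The coreceptor endoglin (Eng, chromosome 2 from 32502115 to 32538189) had 734, 449, 467 and 479.6 normalized counts in KO and 446, 419, 392 and 505 in WT. R1 was 1.45 times the next library, and the other KO libraries lay within the WT range. KO differed from WT by a log2 fold change of 0.27 (-0.06 to 0.61, adjusted p = 0.745) and 0.09 without R1 (-0.12 to 0.30, adjusted p = 0.960). The span of Eng overlaps those of Ak1 and Fpgs, so its count may have lost or shared reads there. Of 20 ligands, receptors and effectors of the TGF-beta and BMP pathways, 18 passed the filter, 13 were positive and the median log2 fold change was 0.12. Without R1, 9 of the 18 were positive and the median was -0.00. Tgfbr1, a receptor of TGF-beta, was higher at the study's thresholds with both sets, with a log2 fold change of 0.64 (adjusted p = 0.526) and 0.66 without R1 (adjusted p = 0.817). The ligand Tgfb2 was lower with both sets, with a log2 fold change of -0.32 (adjusted p = 0.631) and -0.38 (adjusted p = 0.787). With all libraries the call of Tgfb2 was lost without KO library R2 or R4 or WT library R1 or R3, with unadjusted p up to 0.106. Without R1, the call of Tgfbr1 was lost when KO library R3 or R4 or WT library R3 was left out too, with unadjusted p up to 0.0854, and that of Tgfb2 when KO library R2 was, with an unadjusted p of 0.0632. Bmp6 was called with all libraries only, with 149 normalized counts in R1 and 7.60 to 17.5 in R2 to R4.

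Among the junction genes, Cdh5 (chromosome 8 from 106625525 to 106668402), the cadherin of endothelial adherens junctions, had 405, 246, 268 and 256 normalized counts in KO and 227, 238, 236 and 238 in WT. It was the 1 gene of the 10 with every KO library above every WT library, as were 2.64% of all genes tested, and 3.5% without R1. The WT libraries had an SD of 5.36 around 235 (n = 4), and the lowest KO library, R2, lay just above the highest of them. The estimated log2 fold change was 0.32 (-0.01 to 0.64, adjusted p = 0.663) and 0.14 without R1 (-0.05 to 0.33, adjusted p = 0.909). Pecam1, an adhesion molecule of endothelial and blood cells (chromosome 11 from 106515531 to 106611942), had 523, 316, 327 and 407 normalized counts in KO and 406, 338, 287 and 416 in WT. Apart from R1, the KO libraries lay within the WT range. The log2 difference was 0.12 (-0.25 to 0.49, adjusted p = 0.905) and -0.03 without R1 (-0.35 to 0.30, adjusted p = 0.995).

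Cldn5 (chromosome 16 from 18776940 to 18778353), the claudin that seals endothelial tight junctions, had 443, 334, 408 and 398 normalized counts in KO and 345, 298, 272 and 306 in WT. R1, R3 and R4 lay above every WT library, and R2 lay above 3 of the 4. R1 was only 1.17 times the mean of the other KO libraries, against 1.32 to 1.59 times for the other genes in which R1 was the highest. KO had 396 ± 45.4 (SD, n = 4), 380.3 ± 40.0 without R1 (SD, n = 3), and WT 305 ± 30.3 (SD, n = 4). The log2 fold change was 0.38 (standard error 0.10, 95% interval 0.15 to 0.61, unadjusted p = 0.00424, adjusted p = 0.440), the 121st smallest p of the genes tested. Without R1 it was 0.33 (0.09 to 0.58, unadjusted p = 0.0129, adjusted p = 0.745). With all libraries the call at the study's thresholds held in each of the 8 fits that left out 1 library. Without R1 it was lost when KO library R3 or R4 was left out too, with log2 fold changes of 0.27 (unadjusted p = 0.0681) and 0.29 (unadjusted p = 0.0552).

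**Figure D2:**
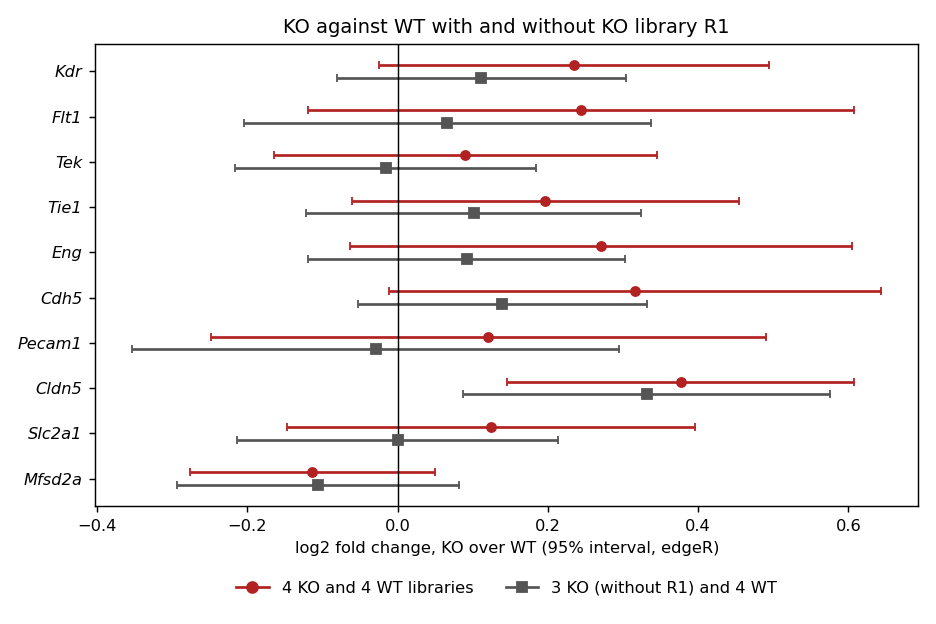
Log2 fold change of KO over WT (x axis) for each brain endothelial gene (y axis) with its 95% interval from edgeR, for all libraries (red circles) and without KO library R1 (grey squares). The interval, not adjusted for the number of genes, lies above 0 for Cldn5 in both cases and includes 0 for the other genes. The values of Cldn5 and Mfsd2a moved least when R1 was left out.

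The glucose transporter Slc2a1 (chromosome 4 from 118781316 to 118809935) had 1272, 778, 962 and 976 normalized counts in KO and 891, 1013, 851 and 900.3 in WT. R3 and R4 lay within the WT range, and R2 was the lowest of all libraries. The estimated log2 fold change was 0.12 (-0.15 to 0.40, adjusted p = 0.857) and 0.00 without R1 (-0.21 to 0.21, adjusted p = 0.9999). Mfsd2a (chromosome 4 from 122624093 to 122638431), a lipid transporter that also keeps vesicle transport low in barrier endothelium, had 701, 614, 759 and 709 normalized counts in KO and 722, 728, 789 and 785 in WT. With all libraries it was the one gene with KO lower, and R1, R2 and R4 lay below every WT library. Its log2 fold change was -0.11 (-0.28 to 0.05, adjusted p = 0.782) and -0.11 without R1 (-0.29 to 0.08, adjusted p = 0.950). Without R1, Tek and Pecam1 were negative as well, at -0.02 and -0.03.

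Other genes of the barrier were taken from a list of 29, of which 25 were tested. Their median log2 fold change was 0.09, with 19 positive, and 0.06 without R1, with 16 positive. At the study's thresholds 2 were higher, Slc40a1 and Itm2a, and 1 lower, Slc16a1, and without R1 Slc40a1 and Slc16a1 were called again. Slc40a1, the iron exporter, had 265 normalized counts in R1, 225 to 261 in the other KO libraries and 154 to 207 in WT, without overlap. The fitted log2 fold change was 0.42 (adjusted p = 0.440) and 0.40 without R1 (adjusted p = 0.693). Slc16a1, which carries lactate and ketone bodies, had 339.5 in R1, 248 to 258 in the other KO libraries and 299 to 355 in WT. R1 lay within WT and the other KO libraries below it, with a log2 fold change of -0.30 (adjusted p = 0.611) and -0.40 without R1 (adjusted p = 0.437). With all libraries this call at the study's thresholds was lost without KO library R2, R3 or R4 or WT library R2 or R3, with unadjusted p up to 0.0763.

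All 6 genes of vesicle transport and fenestration were positive, with a median of 0.41, and 5 were positive without R1, with a median of 0.18. Without R1 that median was 0.05 when KO library R4 was left out too and 0.40 when WT library R4 was. The 6 log2 fold changes ranged from 0.02 for Plvap (adjusted p = 0.992) to 0.59 for Cav1. Without R1 they ranged from -0.05 for Prkcdbp (adjusted p = 0.995) to 0.52 for Cav1. Cav1, the coat protein of caveolae in endothelial and mural cells, had 405 normalized counts in R1, 285 to 376 in the other KO libraries and 192 to 265 in WT. The genotypes did not overlap, and the log2 fold change was 0.59 (adjusted p = 0.261) and 0.52 without R1 (adjusted p = 0.517). DESeq2 gave Cav1 an adjusted p of 0.0120 with all libraries, and of 0.0963 without R1. Ptrf, which builds the same coat, had 172 normalized counts in R1 and 47.1 to 90.4 in the other KO libraries, against 54.2 to 89.5 in WT. Of 15 genes of Wnt and norrin signalling, which induces the barrier, 14 were tested and 0 were called, with a median of 0.04, and -0.02 without R1. Gpr124, a receptor of brain endothelium in this pathway, had 247 normalized counts in R1 and at most 149 elsewhere, with a log2 fold change of 0.35 (adjusted p = 0.804) and 0.04 without R1 (adjusted p = 0.995). The Wnt target Apcdd1 had a log2 fold change of 0.28 (adjusted p = 0.652) and 0.24 without R1 (adjusted p = 0.899).

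Levels per length, in counts per kilobase of exon after scaling to library size, ranked the 10 genes in WT from Mfsd2a (20.3 ± 0.96, SD, n = 4) and Slc2a1 (19.4 ± 1.48) through Cldn5 (13.1 ± 1.30), Kdr (9.16 ± 0.77), Eng (6.89 ± 0.75), Pecam1 (5.07 ± 0.85), Tie1 (3.72 ± 0.32), Cdh5 (3.57 ± 0.08) and Tek (3.51 ± 0.12) to Flt1 (2.22 ± 0.27). The libraries of Mfsd2a and Slc2a1 overlapped, as did those of Tie1, Cdh5 and Tek, and the other neighbours in this order did not overlap. In KO the level of Slc2a1 was 21.2 ± 4.34 and that of Mfsd2a 18.7 ± 1.62 (SD, n = 4), and 19.2 ± 2.34 and 18.7 ± 1.98 without R1 (SD, n = 3). Exons of all annotated isoforms were joined, which understates genes with long and little used exons.

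Each gene was also set against the mean log2 level of the other 9 in the same library, a scale on which a gene that does not follow the others takes on their change with the sign turned. On this scale Cldn5 was 0.22 higher in KO, with R1 at -0.09, the other KO libraries at 0.13 to 0.24 and WT at -0.18 to 0.05. R1 lay within the WT range, and without it the difference was 0.29. The share of all genes that part as far on this scale was not computed. Mfsd2a did not follow the other 9 over the 8 libraries (r = -0.08), and without R1 r was 0.22 over 7 libraries, both as a description. It was 0.32 lower in KO, and 0.20 lower without R1. R1 lay at -0.53, the other KO libraries at -0.09 to 0.05 and WT at 0.05 to 0.34. The other 8 genes differed by -0.10 to 0.13 between genotypes, and each overlapped. These values come from the same counts as the comparison above and were not tested.

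**Figure D3:**
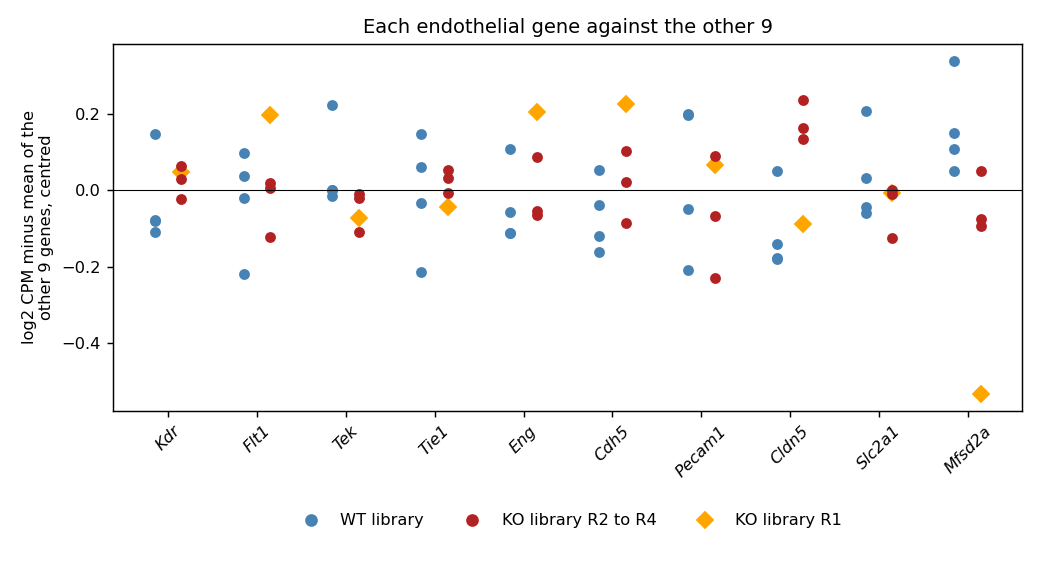
Log2 counts, scaled to library size, of each brain endothelial gene (x axis) minus the mean of the other 9 in the same library, centred on 0 over the libraries (y axis), for WT (blue), KO (red) and KO library R1 (orange diamond). For Cldn5 R1 lies within the range of the WT libraries and the 3 other KO libraries lie above it, and Mfsd2a in R1 is the lowest point at -0.53.

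Over the 8 libraries the median correlation of the 45 pairs of these genes was 0.76, from -0.30 for Cldn5 with Mfsd2a to 0.95 for Kdr with Flt1. Without R1 the median was 0.35, from -0.26 for Cldn5 with Mfsd2a to 0.91 for Tek with Mfsd2a. The median deviation of the 10 genes from their mean was 0.45 in R1, -0.16 to 0.05 in the other KO libraries and -0.20 to -0.03 in WT. The genes most like the mean of the 10 over 8 libraries were Tagln (r = 0.98), Pgm5 (r = 0.98), Trf (r = 0.98), Pcolce (r = 0.97) and Colec12 (r = 0.97), all of them highest in R1. Tagln, a smooth muscle gene, had 62.8 normalized counts there and between 4.56 and 14.2 elsewhere. Without R1 the 5 most alike were different genes, Bhlhe40, Wibg, Layn, Parp10 and Eln, with r from 0.95 to 0.97 over 7 libraries.

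Of 31 other endothelial genes, 24 were tested and Ramp2 was listed at 0 in all libraries. Their median log2 fold change was 0.16, with 22 positive, and 0.05 without R1, with 16 of 25 positive. R1 was the highest library for 17, against 16.8% of all genes tested. At the study's thresholds 4 were called, all higher (Emcn, Mmrn2, Cd93 and Gpr116), against 2.45% of all genes higher in KO. Without R1 Emcn alone was called, against 1.81%. Emcn, a sialomucin of capillaries and veins, had 245 normalized counts in R1, 132 to 169 in the other KO libraries and 95.1 to 128 in WT, without overlap. This gave a log2 fold change of 0.62 (adjusted p = 0.467) and 0.45 without R1 (adjusted p = 0.730), and when KO library R3 was left out as well the unadjusted p was 0.0519. Gpr116, a receptor of endothelium, had 428 in R1, 327 to 342 in the other KO libraries and 263 to 318 in WT, with a log2 fold change of 0.32 (adjusted p = 0.540) and 0.23 without R1 (adjusted p = 0.832).

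Of 21 genes of Notch signalling, tip cells and arteries or veins, 18 were tested and 0 called, with a median of 0.13, and 0.07 without R1. Cxcl12, a chemokine of vessels and meninges, had 618 normalized counts in R1 and at most 243 elsewhere, and its log2 fold change went from 0.60 (adjusted p = 0.736) to 0.08 without R1 (adjusted p = 0.980). Vwf, the clotting factor of endothelium, had a log2 fold change of 0.45 (adjusted p = 0.679) and 0.27 without R1 (adjusted p = 0.936). Of 14 genes of the hypoxia response, 13 were tested, with a median of 0.09 and of 0.03 without R1, and Adm was called in both. Adm, a vasodilator peptide that endothelium also responds to, had 62.8 normalized counts in R1, 48.3 to 51.9 in the other KO libraries and 22.5 to 35.5 in WT, without overlap. The log2 fold change here was 0.77 (adjusted p = 0.421) and 0.70 without R1 (adjusted p = 0.651). Egln3, an oxygen sensor, had values of 0.34 (adjusted p = 0.669) and 0.23 (adjusted p = 0.927).

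Markers of neighbouring cell types were set beside these genes. All 14 markers of pericytes and smooth muscle, the cells around the endothelium, were tested, 13 were positive with a median log2 fold change of 0.25, and 10 without R1 with a median of 0.12. They summed to 4747 normalized counts in R1, 2667 to 3110.2 in the other KO libraries and 2765 to 2910.0 in WT. Rgs5, the most abundant of them, had a log2 fold change of 0.24 (adjusted p = 0.631) and 0.17 without R1 (adjusted p = 0.891). The 8 meningeal markers tested had a median of 2.85, and 0.35 without R1, when 7 were positive and Col1a1 and Igf2 were called at the study's thresholds. Col3a1, a fibrillar collagen, had 3133 normalized counts in R1 and at most 227 elsewhere. The 10 microglial markers tested had a median of 0.35, and 0.01 without R1, and Csf1r, the most abundant, had a log2 fold change of 0.15 (adjusted p = 0.905) and -0.09 without R1 (adjusted p = 0.981). Of the red blood cell markers 5 were tested, with a median of 0.29, and 0.27 without R1, and summed levels of 1702 to 7073 in KO and 1610 to 3814 in WT, and Hbb-bh1 was listed at 0 in all libraries. With all libraries this median was 0.07 without WT library R4 and 0.52 without KO library R4, and with R1 already out it was -0.19 without KO library R2 and 0.59 without KO library R4. Hba-a1 was called at the study's thresholds with both sets, with 164 to 3637 normalized counts in KO and 215 to 349 in WT, and a log2 fold change of 2.44 (adjusted p = 0.536) and 2.24 without R1 (adjusted p = 0.832). Hbb-b2, the most abundant, had a log2 fold change of 0.05 (adjusted p = 0.982) and -0.02 without R1 (adjusted p = 0.999). Hemoglobin genes share reads with near-identical copies, so both are uncertain. The 10 progenitor markers had a median of -0.11, and -0.15 without R1, and the 9 projection neuron markers tested 0.04, and 0.10 without R1. Fabp7 and Tubb3, the most abundant of these lists, had log2 fold changes of -0.04 (adjusted p = 0.968) and 0.04 (adjusted p = 0.918), and of 0.02 (adjusted p = 0.998) and 0.11 (adjusted p = 0.888) without R1. R1 was the highest library for 11 of the 14 mural, 8 of 8 meningeal and 10 of 10 microglial markers tested, against 16.8% of all genes tested. It was the highest for 0 of the progenitor, neuron and red blood cell markers.

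**Figure D4:**
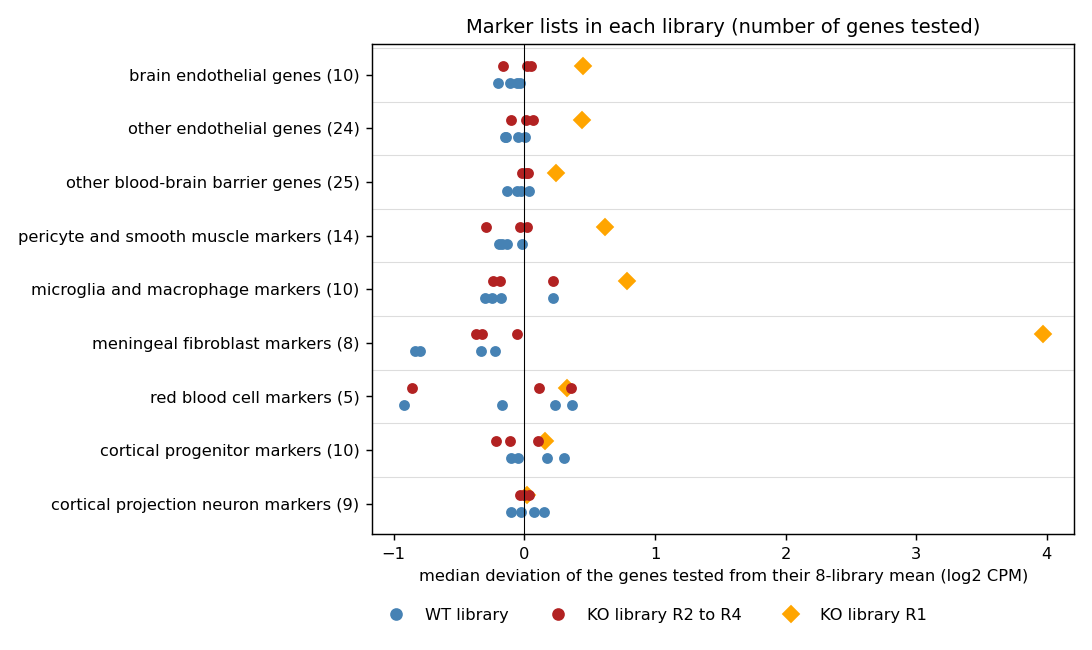
Median deviation of the tested genes of each list from their mean over the 8 libraries, in log2 counts scaled to library size (x axis), for WT (blue), KO (red) and KO library R1 (orange diamond), with the number of genes tested beside each list (y axis). R1 lies above every other library for the endothelial, barrier, mural, microglial and meningeal lists, at 0.45 for the brain endothelial genes and 3.97 for the meningeal markers, and among the others for red blood cells and neurons.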

How the data were processed

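Per the labels and methods, the authors trimmed reads of whole cortex RNA (Cutadapt 1.13, Prinseq 0.20.4), aligned them to mm9 (TopHat2 2.0.13, SAMtools 0.1.19) and summed them over genes by HTSeq-count. The deposited values are raw whole-number counts in 21165 rows, of which 4641 hold none in any library. Whether counting used strand is not given in the sources used here.

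The genes and lists were chosen with earlier results of these data known. Named besides the 10 genes are Nuak1, the 2 genes of smallest p in each pathway list, the most abundant gene of each other marker list and the 5 genes most alike. Vegfa, Vegfc, Bmp6 and other genes called by the rule of the study were named after their values were seen, as were Plvap and Prkcdbp.

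Libraries were grouped by genotype. The tool was edgeR 4.0.16 under R 4.3.3, with TMM scaling, filterByExpr, the quasi-likelihood test and Benjamini-Hochberg adjustment over all genes tested. Standard errors were obtained as the size of the fold change over the root of F. Log2 levels used a prior count of 2. Alternatives were DESeq2 1.42.0, its size factors, other filters and each library left out. Replicates differed by more than sampling noise, with a chi-square per degree of freedom of 5.73 to 15.9, the highest for WT libraries R2 and R4. Pairs with WT library R4 had 8.99 to 15.9, and pairs with KO library R1 had 9.34 to 11.3. Scripts were tested on simulated data. Gene positions come from an annotation of NCBIM37, and promoters from RefSeq.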

Additional observations from a re-analysis of the deposited data

Results flagged for a closer look

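In groups of 4 libraries, a library was picked out when its gap to the nearest other as a share of the range of the group exceeded the 95% critical value of Dixon. This held for 20 of 112 groups, where chance gives about 5.6, and in 15 of the 20 the library was KO library R1. Some of these genes were chosen for following the mean of the 10 over the 8 libraries, which R1 drives. Without those 5 genes it held for 15 of 102 groups, where chance gives about 5.1, and in 11 the library was R1. Other genes were chosen for a small p over all libraries, and all groups draw on the same 8 libraries. The groups are thus not independent, and the counts are given as a description, from which no excess over chance is drawn. Among the brain endothelial genes, R1 stood out for Eng, with 734 normalized counts against at most 479.6 in the other KO libraries, and for Cdh5, with 405 against at most 268. In WT, Cdh5 was low in library R1, with 227 normalized counts against 236 to 238.

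Other vascular genes in which R1 stood apart among KO libraries were Gpr116 with 428 normalized counts, Gpr124 with 247, Slc16a1 with 339.5, Angpt2 with 70.5 and Cxcl12 with 618. The same held for Tagln with 62.8, Pgm5 with 71.7, Pcolce with 163, Colec12 with 396, Col3a1 with 3133 and the water channel Aqp1, of choroid plexus, with 65.3. The median deviation of the other blood-brain barrier genes was 0.24 in R1, and that of the meningeal fibroblast markers 3.97.

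In 4 further cases another library was picked out. Nrp1 had 6315 normalized counts in WT library R2, Slc16a1 299 in WT library R1 and Pcolce 35.5 in WT library R4. Hbb-b2 had 1075 normalized counts in KO library R4, against 2329 to 2363 in the other KO libraries.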

How the results depend on the processing

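The main limit on the brain endothelial genes is KO library R1, without which their median log2 fold change fell from 0.22 to 0.08. That lower value was 0.0184 when WT library R3 was left out as well and 0.136 when KO library R2 was. The 0 calls at an adjusted p of 0.05 among the 10 genes were the same in every alternative tried. With DESeq2 the number of genes called among all tested was 69 rather than 9, and 48 rather than 6 without R1. Without R1 that number was 10 when low counts were kept and 3 when each library needed at least 10 counts. At the study's thresholds, 2 of the 10 genes were called in place of 1 with DESeq2 and with no filter, Cdh5 being added. The shares of all genes called were 3.85% and 4.33%, against 4.25% in the main fit, all with all libraries. The cause of these differences was not tested.

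With each library left out in turn, genes called numbered 2 to 11 with all libraries, and 3 to 20 without R1. At the study's thresholds they numbered 426 to 847 and 327 to 833, the highest without WT library R4. Of the 10 genes, 1 to 5 were called at these thresholds, 5 without KO library R2 (Cdh5, Cldn5, Flt1, Kdr and Tie1), against 5.35% of all genes in that fit, and 0 to 1 when R1 was already left out. Some directions turned. Log2 fold changes ranged from -0.0158 to 0.17 for Tek, -0.0289 to 0.22 for Pecam1, -0.16 to 0.27 for Hbb-b2, -0.0858 to 0.29 for Csf1r and -0.16 to 0.0636 for Fabp7. Without R1 they ranged from -0.0701 to 0.0364 for Tek, -0.0191 to 0.16 for Flt1, -0.16 to 0.0395 for Pecam1, -0.0641 to 0.0945 for Slc2a1, -0.0432 to 0.15 for Gpr124, -0.23 to 0.27 for Hbb-b2, -0.25 to 0.0258 for Csf1r, -0.12 to 0.11 for Fabp7 and -0.13 to 0.37 for Tagln. List medians turned too, from -0.0168 to 0.122 for Wnt and norrin signalling, -0.0515 to 0.0637 for VEGF ligands and coreceptors and -0.0042 to 0.17 for TGF-beta and BMP partners. Without R1 they ranged from -0.0028 to 0.11 for the other endothelial genes, -0.0166 to 0.105 for the barrier, -0.106 to 0.00742 for VEGF, -0.0179 to 0.132 for the angiopoietins, -0.054 to 0.0282 for TGF-beta and BMP, -0.19 to 0.59 for red blood cells, -0.126 to 0.13 for microglia and -0.00956 to 0.0814 for hypoxia. Slc2a1 without R1 was -0.00119 with DESeq2, -0.00102 with its size factors, -0.00132 with no filter and -0.00822 with at least 10 counts. Of the values that answer a comparison, 92 stayed within 1.5 times or 1 SD of the main value and 23 moved further.

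No paired analysis was possible because no label ties the running number of a column to a litter. With 4 embryos a genotype, the 95% intervals of all but Cldn5 included 0, and those genes are not shown to be unchanged. The intervals are not adjusted for the number of genes. Cldn5 had an adjusted p of 0.440 in edgeR, and of 0.745 without R1, so a change is not established for it either.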
